A study of Mus musculus with 10 samples.

Results

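The regions described here are stretches of open chromatin of mouse thymic epithelial cells (TEC) that were called at embryonic day 17 (E17) and again in the day 6 fraction labelled mTEC2, but not at embryonic day 15 (E15). All peaks of the 10 deposited peak lists were merged where they overlapped or touched, which gave 351411 regions from 882163 peaks. A region was kept when it was called in both E17 lists, in at least 1 mTEC2 list and in neither E15 list. This left 701 regions, 0.199% of all merged regions, which are called E17-and-mTEC2 regions below. The regions were thus selected on the calls in the E15, E17 and mTEC2 lists, and those calls are described and not tested.

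Open chromatin was profiled with ATAC-seq on TEC sorted from wild-type C57BL/6 thymi that had been digested with Liberase TH and DNase. The groups, with 2 libraries each, were E15, E17 and the day 6 fractions titled mTEC4, mTEC1 and mTEC2. The labels name no mutation and no treatment in any group. The titles do not say how the fractions were gated, and the embryonic titles name no fraction. Between embryos and day 6, a change of age may therefore come with a change of sorted fraction. Inside the peak names, the E15, E17 and mTEC2 lists share the tag "hi", while mTEC4 is named aTEC and mTEC1 eTEC. The lists that define the E17-and-mTEC2 regions thus all carry 1 tag that the other day 6 lists lack. Nothing in the labels says that the 2 libraries of a group came from separate animals, so the spread between them may be technical.

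In ATAC-seq a transposase inserts sequencing adapters where DNA is not wrapped in nucleosomes, so peaks mark promoters, enhancers and other open sites. TEC form the stroma in which T cells mature. Cortical TEC present self-peptides for positive selection, and medullary TEC (mTEC) display tissue-restricted antigens, many of them under the control of Aire. Foxn1, a forkhead transcription factor, is required for TEC differentiation, and the series concerns its regulation. In a published single-cell scheme, mTEC I cells are rich in Ccl21a, mTEC II cells express Aire and mTEC IV cells resemble tuft cells, but the labels do not say that the titles follow it.

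Distal sequence was not used here, so the sequences shown are those of promoters that the E17-and-mTEC2 regions reach. The RefSeq promoters used here (GRCm38.p6, 250 bases before to 50 after a transcription start) do not cover every chromosome. Of 32851 promoters, 8 (0.0244%) overlapped an E17-and-mTEC2 region. They belong to Ccdc184, Tmem26, Gm12532, 5430440P10Rik, Tenm4, Ggt1, Morrbid and Art5, in order of the strength of the region. The first 3 are printed because they carry the best-ranked regions at a transcription start. They run 5′ to 3′ in the direction of the gene, and capitals mark matches to any of 17 transcription factor motifs on either strand. The Ccdc184 promoter lies at chr15:98167556-98167855, plus strand, wholly inside its region. The Tmem26 promoter lies at chr10:68723496-68723795, plus strand, with bases 169 to 300 inside the region. The promoter of the long noncoding RNA Gm12532 lies at chr3:37182635-37182934, plus strand, wholly inside its region.
Ccdc184: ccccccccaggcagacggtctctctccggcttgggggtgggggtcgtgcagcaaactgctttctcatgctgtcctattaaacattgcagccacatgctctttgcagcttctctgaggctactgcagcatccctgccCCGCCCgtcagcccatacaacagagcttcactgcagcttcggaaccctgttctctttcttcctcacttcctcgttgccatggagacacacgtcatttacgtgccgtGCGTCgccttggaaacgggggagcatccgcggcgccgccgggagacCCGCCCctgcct
Tmem26: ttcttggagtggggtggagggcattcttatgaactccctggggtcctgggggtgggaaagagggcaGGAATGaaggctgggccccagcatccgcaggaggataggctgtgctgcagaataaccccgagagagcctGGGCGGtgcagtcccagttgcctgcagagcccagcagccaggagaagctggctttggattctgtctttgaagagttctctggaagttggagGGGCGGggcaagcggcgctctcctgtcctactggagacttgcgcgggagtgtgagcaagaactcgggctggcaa
Gm12532: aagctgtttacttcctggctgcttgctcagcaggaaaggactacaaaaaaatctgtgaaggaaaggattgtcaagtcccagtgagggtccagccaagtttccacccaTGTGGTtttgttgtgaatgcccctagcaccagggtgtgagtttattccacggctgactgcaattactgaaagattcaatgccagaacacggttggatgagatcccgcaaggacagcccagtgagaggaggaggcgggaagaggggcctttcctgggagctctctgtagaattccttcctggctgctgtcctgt
The Ccdc184 promoter held 19 CpG dinucleotides and 61% G or C, against a median of 7 CpG and 52.7% over all promoters. Its matches were 1 FOXN1 core (GACGC) and 2 GC boxes (GGGCGG). The Tmem26 promoter held 2 GC boxes and 1 TEAD match (GGAATG), of which 1 GC box lay in the region. The Gm12532 promoter held 1 RUNX match (TGTGGT).

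Over the 8 promoters, the E-box CACGTG was found in 3, against 7.15% of all promoters, and GGAATG was found in 3, against 14.7%. The FOXN1 core GACGC was found in 3, against 27.2% of all promoters, and GGGCGG in 3, against 35.7%. The ETS motif CCGGAA was found in 2, against 14.9%. In 1 promoter each there was a match to the AP-1 motif TGANTCA (7.81% of all promoters), to TGTGGT (16.8%), to the IRF motif (3.44%), to the octamer ATGCAAAT (1.74%), to the GRHL motif AACCNGTT (2.09%), to CCAAT (37.4%) and to TATAAA (13.6%). No promoter of the 8 held the CRE TGACGTCA (1.79%), the GATA motif AGATAA (11.2%), the CTCF core (3.21%), the NF-kB consensus (4.51%) or a p53 family pair (0.00913%). Motif matches were allowed to overlap, both strands were searched, and 8 promoters are too few to compare shares. The region at Ccdc184 had a −log10 q (the peak caller's significance, on a log scale within 1 list) of 3.95 and 3.60 in the E17 lists, 4.72 in mTEC2 replicate 1 and 1.30 in mTEC1 replicate 2. The region at Tmem26 had 3.07 and 4.45 in the E17 lists and 2.36 in mTEC2 replicate 1, and no peak elsewhere.

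The E17-and-mTEC2 regions were few beside those with calls at both embryonic ages. Regions called in both E15, both E17 and at least 1 mTEC2 list, called shared regions, numbered 45200. Turning the 2 embryonic ages round (both E15 lists, at least 1 mTEC2 list, neither E17 list) gave 665 regions, called E15-and-mTEC2 regions, against 701 by the rule itself. Of 5071 regions called in both E17 and neither E15 list, 701 (13.8%, 95% Wilson interval 12.9 to 14.8) were called in an mTEC2 list, and the other 4370 are called E17-only regions. Of 2070 regions called in both E15 and neither E17 list, 665 (32.1%, 30.1 to 34.2) were. These intervals cover counting error only and leave out the spread between libraries. Among regions called in mTEC2, the rule and its reverse were therefore met by similar numbers, and with every list cut to the length of the shortest they were met by 765 and 1334 regions. A missing peak means only that none was called, and read depth is unknown. In bulk libraries a site open in few cells and a site weakly open in many cannot be told apart.

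The mTEC2 call rested mainly on 1 library. mTEC2 replicate 1 called 603 (86.0%) of the 701 regions and mTEC2 replicate 2 called 161 (23.0%). In the same lists 57.3% and 29.5% of the 79576 regions with both E17 calls were called. By pattern, 540 regions (77.0%) were called in replicate 1 alone, 98 (14.0%) in replicate 2 alone and 63 (8.99%) in both. Of the 665 E15-and-mTEC2 regions, 140 were called in both, with 89.9% called in replicate 1 and 31.1% in replicate 2. For shared regions the shares in replicates 1 and 2 were 95.4% and 50.5%. The mTEC2 lists held 101917 peaks (replicate 1) and 40858 (replicate 2), so the library with the longer list supplied most of the calls. With each day 6 list shortened to its best 40858 peaks, a choice made after seeing the data, mTEC2 replicate 1 called 181 (25.8%) of the 701 regions and replicate 2 called 161 (23.0%).

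The mTEC1 and mTEC4 lists play no part in the rule. Of the E17-and-mTEC2 regions, 13.1% and 19.8% were called in the 2 mTEC1 lists, where 23% and 19.9% of all merged regions were called. In the 2 mTEC4 lists 10.6% and 14.4% of them were called, where 19.7% and 19.8% of all merged regions were. The share in mTEC1 averaged 16.5% ± 4.74 and that in mTEC4 12.5% ± 2.72 (SD, n = 2 each), a difference of 3.99 percentage points. The libraries of the 2 fractions overlapped, and an exact two-sided permutation test gave p = 0.667, with 0.333 the smallest p that 2 against 2 libraries allow. No difference between mTEC1 and mTEC4 was therefore detectable.

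In the same 4 libraries the E17-and-mTEC2 regions were set against the other sets, library by library in a design too small for any test to reach the 0.05 threshold. They averaged 14.48% ± 3.91 and the E15-and-mTEC2 regions 27.5% ± 7.41 (SD, n = 4 libraries). The difference was −13.0 percentage points (SD 3.54) and was negative in 4 of 4 libraries. An exact two-sided sign-flip permutation gave p = 0.125, the smallest that 4 libraries allow. This difference turned to 7.38 percentage points (p = 0.25, exact) when E17 replicate 2, the longest list, was left out of the rule. Set against E17-only regions, which averaged 2.52% ± 0.997, the E17-and-mTEC2 regions were called more often by 11.96 percentage points (SD 2.95, higher in 4 of 4 libraries, exact p = 0.125). Set against shared regions, which averaged 45.8% ± 14.1, they were called less often by 31.4 percentage points (SD 10.2, lower in 4 of 4 libraries, exact p = 0.125). E17-only regions were chosen for having no mTEC2 peak, so their low share elsewhere at day 6 is in part fixed by that choice.

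**Figure D1:**
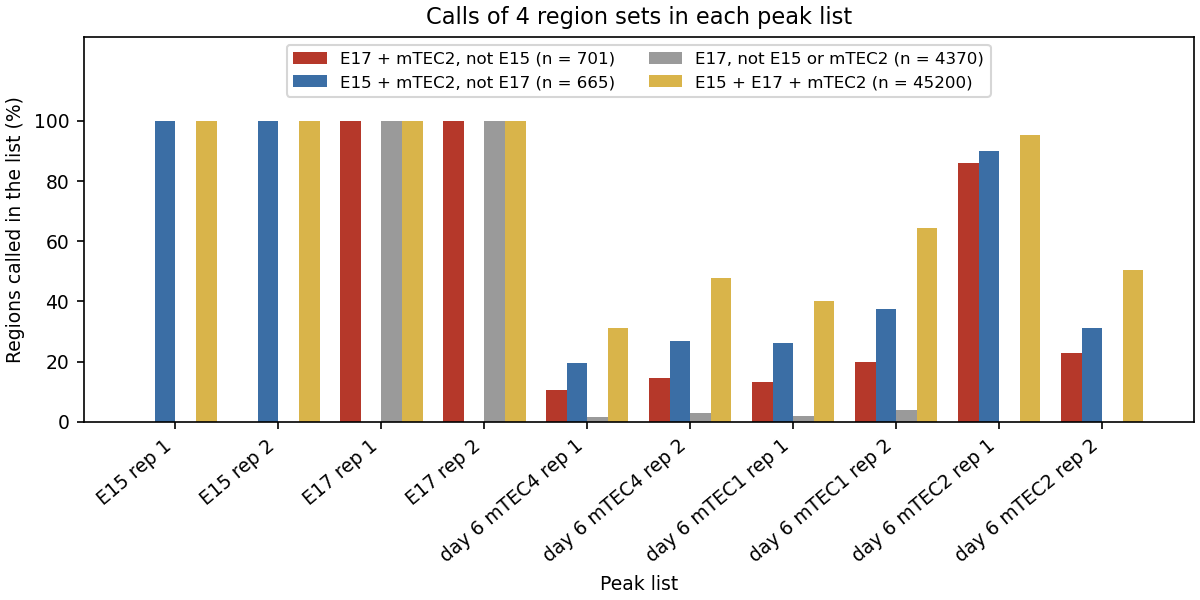
Percent of the regions of each set that were called in each peak list (y axis) for the 10 lists (x axis); bars are E17-and-mTEC2 regions (n = 701, red), E15-and-mTEC2 regions (n = 665, blue), E17-only regions (n = 4370, grey) and shared regions (n = 45200, yellow). Bars at 0 or 100% in the embryonic lists, and the mTEC2 bars, follow from the rules; in the mTEC4 and mTEC1 lists the red bars reach 10.6% to 19.8%, below blue and yellow and above grey.

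Of the E17-and-mTEC2 regions, 479 (68.3%) were in 0 of the 4 mTEC1 and mTEC4 lists, as were 44.4% of all merged regions and 48.4% of regions with both E17 calls. The share was 45.1% for E15-and-mTEC2 regions, 92.3% for E17-only regions and 25.8% for shared regions. There were 118 (16.8%) in 1 list, 45 (6.42%) in 2, 38 (5.42%) in 3 and 21 (3.0%) in 4. At least 1 mTEC1 list held 179 regions (25.5%), and at least 1 mTEC4 list held 135 (19.3%). The regions seen in mTEC1 but no mTEC4 list numbered 87 (12.4%), and those in mTEC4 but no mTEC1 list 43 (6.13%). No share over all merged regions is given beside these 2 counts. A merged region spans all the peaks joined in it, so more calls tend to widen it by construction. Regions with more day 6 calls were wider, with medians of 162, 215, 326, 376.5 and 342 bp for 0 to 4 lists. Their median −log10 q in E17 replicate 2 was 4.54, 4.66, 2.74, 2.76 and 2.12 in the same order, so the widely called regions were not the strongest at E17.

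Of all regions with both E17 calls and no E15 call, 11.9% and 3.17% were called in the mTEC2 lists, against 3.45% and 6.03% in mTEC1 and 2.84% and 4.38% in mTEC4. The same lists called 57.3% and 29.5% (mTEC2), 24.4% and 42.9% (mTEC1) and 19% and 30.4% (mTEC4) of all regions with both E17 calls. mTEC2 averaged 7.53% ± 6.16 (SD, n = 2) and the other day 6 libraries 4.18% ± 1.39 (SD, n = 4), a difference of 3.36 percentage points, which is not tested because the rule uses the mTEC2 calls. mTEC2 replicate 1 was the highest of the 6 libraries and mTEC2 replicate 2 lay among the others. In the shortened day 6 lists mTEC2 stood at 3.57% and 3.17%, mTEC1 at 2.03% and 2.88% and mTEC4 at 1.85% and 2.48%. The same shortened lists called 36.5% and 29.5% (mTEC2), 19.3% and 33.2% (mTEC1) and 15.6% and 25.3% (mTEC4) of all regions with both E17 calls, so mTEC2 replicate 1 was highest in both sets of regions. Without mTEC2 replicate 1 the difference was −1.001 percentage points, so its sign at full length rests on that library.

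The peaks behind the E17-and-mTEC2 regions stood in the middle or the lower part of the E17 and mTEC2 lists, and below those of shared regions. All folds and q values are the authors' own for each peak, and they rank peaks within a list only. The median −log10 q was 3.07 in E17 replicate 1 (lowest 1.13, highest 23.7) and 4.24 in E17 replicate 2 (1.02 to 23.2). In mTEC2 it was 1.68 in replicate 1 (1.01 to 12.4, n = 603) and 1.82 in replicate 2 (n = 161). A −log10 q under 2 was found for 64.0% of their calls in mTEC2 replicate 1, against 55.4% of all peaks of that list, and for 58.4% in replicate 2, against 44.3%. A value of at least 5 was reached by 15 of the 603 calls in mTEC2 replicate 1, where 14.3% of all peaks reached it. Shared regions, by comparison, had medians of 7.74 and 13.4 in the E17 lists and 3.07 and 2.69 in the mTEC2 lists. As ranks, the median E17-and-mTEC2 region stood at the 29.3 and 48.1 percentiles of the 2 E17 lists and at the 45.7 and 30.5 percentiles of the 2 mTEC2 lists. Median fold enrichment over the caller's background was 4.24 and 4.66 in E17 and 3.13 and 2.98 in mTEC2.

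**Figure D2:**
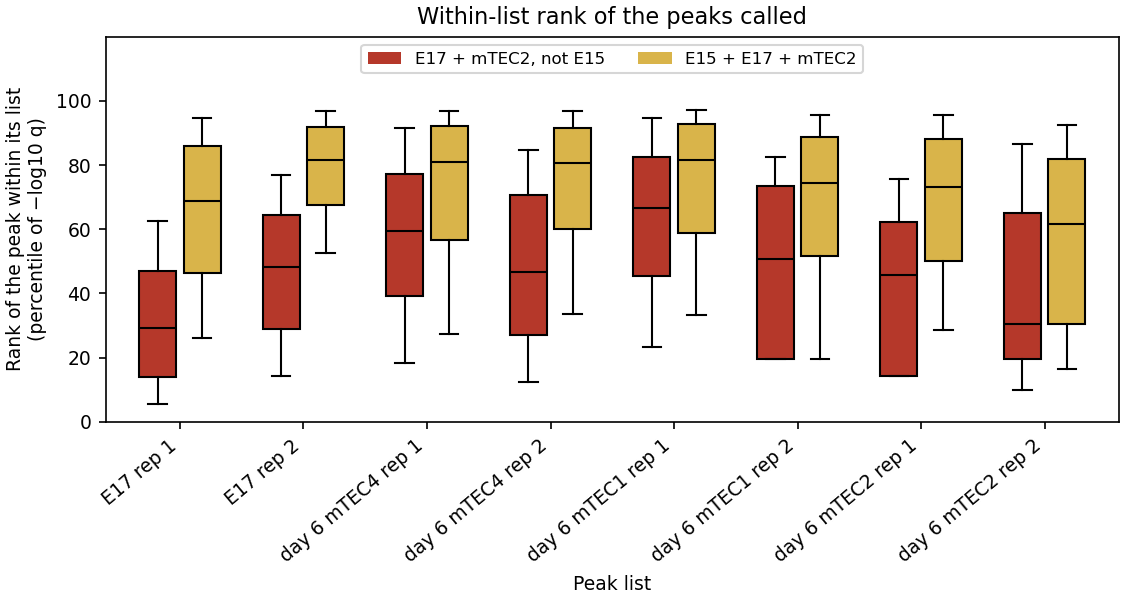
Rank of each called peak within its own list (y axis, percentile of −log10 q, 100 the strongest) for the 8 lists other than E15 (x axis), for E17-and-mTEC2 regions (red) and shared regions (yellow); lines are medians, boxes hold the 25th to 75th and whiskers the 10th to 90th percentiles. The red medians, 29.3 in E17 replicate 1 and 48.1 in E17 replicate 2, lie under the yellow ones in every list, and 2 red boxes have no lower whisker because their 10th and 25th percentiles fall on the same tied value.

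Regions just outside the rule were more numerous than those inside it. There were 2084 regions with both E17 calls, an mTEC2 call and 1 E15 call, and in that E15 list their median −log10 q was 3.21. Another 3694 regions had 1 E17 call, an mTEC2 call and no E15 call, with a median of 2.10, and 83.8% of these had their E17 call in replicate 2 alone, the list of 151646 peaks against 86237 in E17 replicate 1. The nearest E15 peak lay at a median of 5111 bp from an E17-and-mTEC2 region (minimum 19 bp), and within 1 kb of 88 of them (12.6%). For E17-only regions the nearest E15 peak lay at a median of 4600.5 bp and within 1 kb of 16.6%. For E15-and-mTEC2 regions the nearest E17 peak lay at a median of 3159 bp and within 1 kb of 21.4%. The E15 and E17 lists differ in length, so distances to E15 and to E17 peaks are not on an equal footing.

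**Figure D3:**
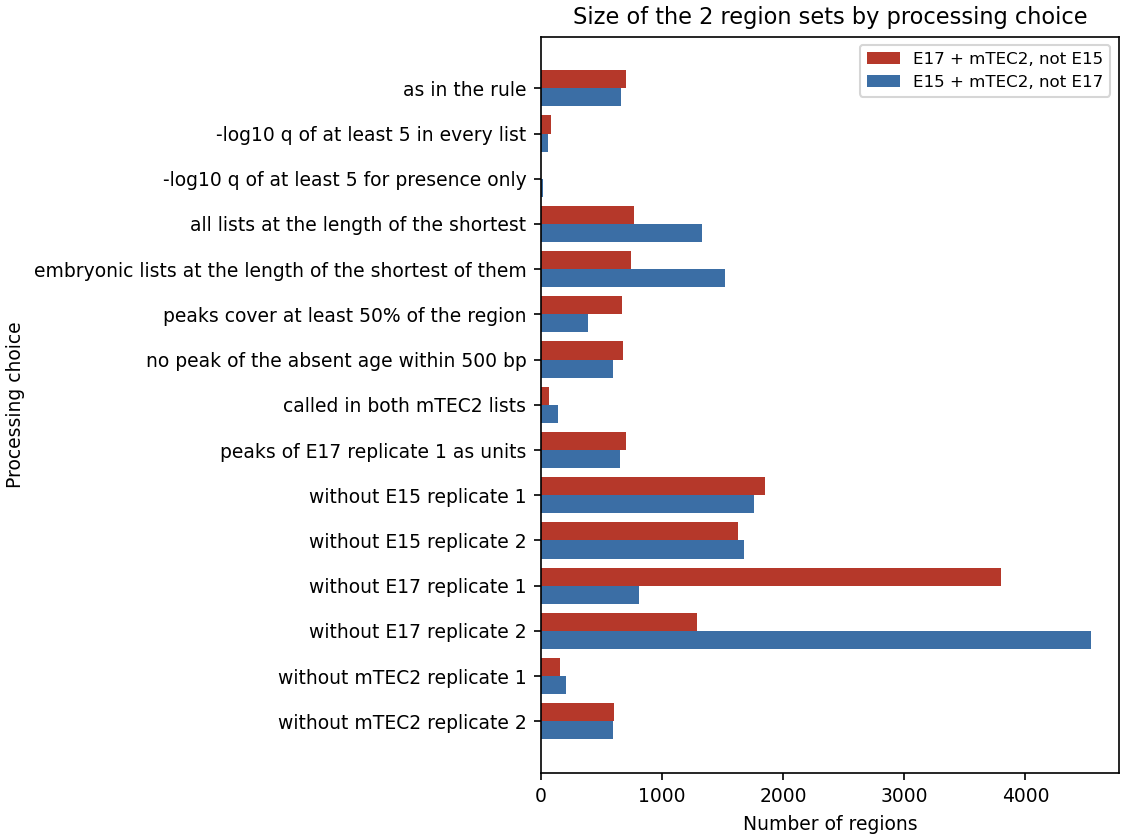
Number of regions (x axis) that meet the rule (red, E17-and-mTEC2) and the rule with the embryonic ages turned round (blue, E15-and-mTEC2) under each processing choice (y axis). The pair of sets is 701 and 665 as in the rule, 765 and 1334 with all lists at the length of the shortest, and 3796 and 814 without E17 replicate 1.

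Few E17-and-mTEC2 regions lay at gene ends, as was the case for merged regions in general. In all, 35 (4.99%, interval 3.61 to 6.86) were within 1 kb of an end of a protein-coding gene, 353 (50.4%) were inside a gene and 313 (44.7%) were elsewhere. The share at a gene end was 4.96% for E15-and-mTEC2 regions, 5.77% for E17-only regions, 27.5% for shared regions and 6.45% for all merged regions. The share inside genes, 50.4%, stood beside 41.4% for E15-and-mTEC2, 49.8% for E17-only, 37.0% for shared and 38.2% for all merged regions. The median distance to a RefSeq transcription start was 22117 bp over the 676 regions on chromosomes the promoter table covers, and 24 (3.55%) lay within 1 kb of one. It was 27915.5 bp for E15-and-mTEC2 regions and 13532.5 bp for shared regions, 25.3% of which lay within 1 kb. For the 4370 E17-only regions it was 24772.5 bp, with 4.67% within 1 kb. Regions with both E17 calls had a median of 17905.5 bp, with 17.3% within 1 kb. Promoters overlapped by a region numbered 8 for the 701 E17-and-mTEC2 and 26 for the 665 E15-and-mTEC2 regions. They numbered 71 for E17-only regions and 13351 for the 45200 shared regions. Over all merged regions the median distance was 34439 bp, with 5.75% within 1 kb. Against all merged regions, the median E17-and-mTEC2 region thus lay closer to a start and fewer lay right beside one. The same was true of E17-only regions, so this is not particular to the E17-and-mTEC2 regions. The median E17-and-mTEC2 region was 187 bp wide (10th to 90th percentile 107 to 554 bp), against 256 bp for E15-and-mTEC2, 168 bp for E17-only and 508 bp for shared regions. Shared regions join peaks of more lists, which widens them by construction. Chromosome 11 held the most of any chromosome, 63 of the 701 (8.99%), against 4.06% of E15-and-mTEC2, 7.0% of E17-only and 6.81% of shared regions. These shares of single regions were not tested, since regions are not replicates.

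**Figure D4:**
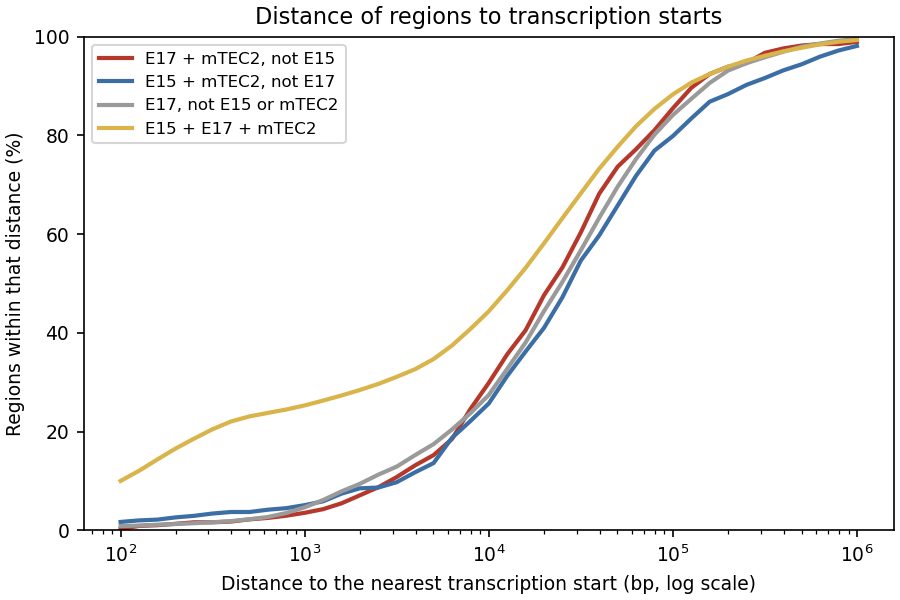
Cumulative percent of regions (y axis) within a given distance of the nearest RefSeq transcription start (x axis, bp, log scale) for E17-and-mTEC2 (red), E15-and-mTEC2 (blue), E17-only (grey) and shared regions (yellow). At 1 kb the red line stands at 3.55% and the yellow line at 25.3%, and the red, blue and grey lines run close to each other up to 10 kb.

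Genes near E17-and-mTEC2 regions were many and scattered. Of the 701 regions, 612 had a protein-coding gene within 100 kb and 89 had none. The nearest genes numbered 589, of which 23 had 2 regions and none had more. The regions of highest strength (the lowest of their within-list percentiles in both E17 lists and the better mTEC2 list) were narrow, with the top 15 between 103 and 217 bp wide. The strongest lay at chr19:4981910-4982049, 2304 bp from Npas4, a transcription factor known from activity-dependent transcription in neurons. Its −log10 q was 11.5 and 21.2 in E17, 4.74 in mTEC2 replicate 1 and 1.30 in mTEC1 replicate 2. The next, inside Snx12, an endosomal sorting nexin, at chrX:101132343-101132462, had 10.2 and 17.96 in E17 and 4.80 in mTEC2 replicate 1, with no peak elsewhere.

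Further regions of the 15 lay inside genes of several kinds. A region inside Kat6a, a histone acetyltransferase, at chr8:22869442-22869553, had 8.60 and 17.4 in E17 and alone among the first 8 was called in mTEC2 replicate 2 and not in replicate 1, at 3.22. A region inside Arpc1b, a subunit of the actin-nucleating Arp2/3 complex, at chr5:145117011-145117148, had 8.43 and 13.1 in E17, 3.01 in mTEC2 replicate 1 and 3.71 in mTEC4 replicate 2. The region inside Sgta, a co-chaperone, at chr10:81050753-81050855, had 8.02 and 8.49 in E17 and 6.92 in mTEC2 replicate 1, which are the 70.2, 70.0 and 91.1 percentiles of those lists. That inside Zwilch, a kinetochore protein, at chr9:64140620-64140746, had 8.35 and 6.82 in E17, 6.09 in mTEC2 replicate 1 and 1.88 in mTEC1 replicate 2. Sgta and Zwilch belong to the 4 regions with a −log10 q of at least 5 in both E17 lists and in an mTEC2 list, with Dlgap2, a postsynaptic scaffold protein, and Abcb10, a mitochondrial transporter. The other named genes of the top 15 were Abhd5 (region 94881 bp away), Tm2d1, Shroom2, Slc25a48 (region 4234 bp away), Rnf212b and Nphs1. Their regions had 7.34 to 10.6 in E17 replicate 1 and 9.59 to 19.0 in E17 replicate 2. Their mTEC2 values were 2.57 to 4.15, all in replicate 1.

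In 2 of the 15 no coding gene lay within 100 kb. Of these, chr13:6999049-6999165 had the highest −log10 q of all 701 regions in both mTEC4 lists, 22.4 and 20.7, and 16.9 and 3.32 in mTEC1. It had 11.7 and 8.14 in E17, 4.84 in mTEC2 replicate 2 and no peak in mTEC2 replicate 1. The Abcb10 region, at chr8:123961482-123961604, had the highest value of the set in mTEC1 replicate 1, at 22.6, with 5.82 in mTEC1 replicate 2, 6.19 and 5.09 in E17 and 5.97 in mTEC2 replicate 2.

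**Figure D5:**
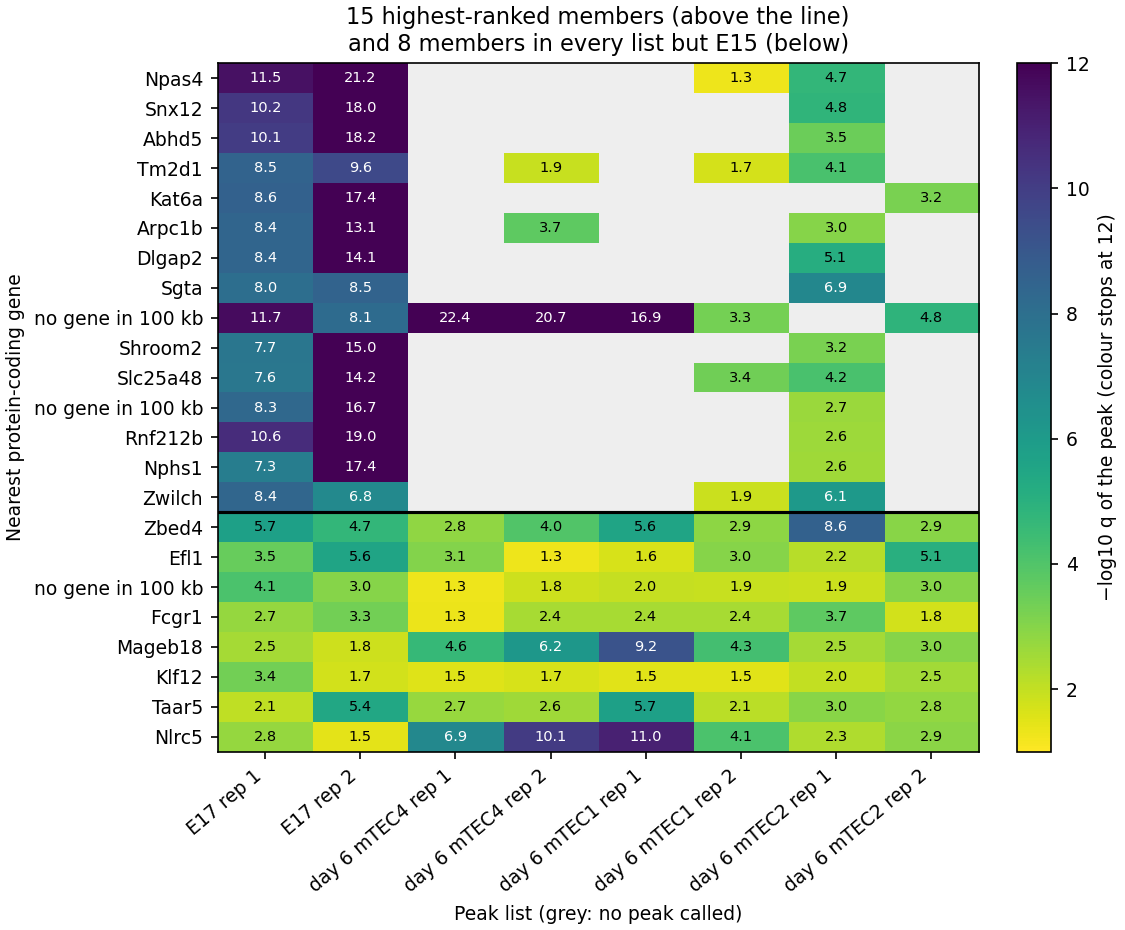
−log10 q of each peak (colour and number) in the 8 lists other than E15 (x axis) for 23 E17-and-mTEC2 regions, named by the nearest gene (y axis): the 15 of highest strength above the line and the 8 called in all 8 lists below it; grey marks no call, and the values are comparable within a column only. The upper regions reach 7.3 to 11.7 in E17 replicate 1 and each have 1 mTEC2 call; the lower ones stay at or below 5.7 there.

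Among the genes with a pair of regions, the 10 with the highest summed strength were Il17rd, Dgkh, Nin, Dynll2, Nectin1, Mbp, Macf1, Efl1, Mid1 and Prkce. Il17rd, a membrane inhibitor of fibroblast growth factor signalling, had regions 15828 bp and 1926 bp from its ends, with −log10 q of 9.12 and 6.44 in E17 at the first and 4.30 and 6.62 at the second. Both were called in mTEC2 replicate 1 (2.30 and 1.38) and in no other day 6 list. Dgkh, a diacylglycerol kinase, had 2 regions inside the gene, with 11.4 and 8.72 in E17 at the first and 2.26 and 4.44 at the second, and 2.32 and 1.09 in mTEC2 replicate 1. The regions at Dynll2, a dynein light chain, lay 24121 and 22153 bp from the gene, and those at Nectin1, an epithelial adhesion protein, inside it. Prkce, a protein kinase C isoform, had 2 regions inside the gene at 3.78 and 4.51 and at 1.76 and 7.90 in E17.

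A first group picked out after the values were seen is made of the 8 regions called in all 8 lists other than E15. They are 1.14% of the 701, and no share in other region sets is given. The nearest genes were Zbed4, Efl1, Fcgr1, Mageb18, Klf12, Taar5 and Nlrc5, and 1 region had no coding gene within 100 kb. The Zbed4 region, at chr15:88766358-88766859, had 5.75 and 4.73 in E17, 2.83 and 3.996 in mTEC4, 5.58 and 2.86 in mTEC1 and 8.58 and 2.94 in mTEC2. The region inside Nlrc5, a transactivator of major histocompatibility complex class I genes, at chr8:94502266-94502792, had 2.75 and 1.46 in E17, 6.85 and 10.1 in mTEC4, 11.0 and 4.11 in mTEC1 and 2.33 and 2.90 in mTEC2. By rank in the list, it stood at the 10.8 percentile in E17 replicate 2 and at the 98.6 percentile in mTEC1 replicate 1.

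A second such group is made of the 23 regions called in both mTEC2 lists and in no mTEC1 or mTEC4 list, 3.28% of the 701. For this group too no share in other region sets is given, so it is not shown to be particular to mTEC2. Its strongest, inside the calcium channel subunit gene Cacnb2 at chr2:14851420-14851706, had 7.75 and 6.53 in E17 and 3.31 and 2.06 in mTEC2. The region inside Mrtfa, a coactivator of serum response factor, at chr15:81077675-81077832, had 3.83 and 8.95 in E17 and 3.30 and 1.77 in mTEC2. The region inside Smad6, an inhibitor of bone morphogenetic protein signalling, at chr9:63956215-63956362, had 4.52 and 6.11 in E17 and 1.05 and 1.84 in mTEC2. The region inside Foxp1, a forkhead transcription factor, at chr6:99283299-99283745, had 2.88 and 1.38 in E17 and 2.12 and 3.72 in mTEC2. These are the 26.5 and 9.35 percentiles of the E17 lists and the 58.3 and 79.5 percentiles of the mTEC2 lists.

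Listed TEC genes had E17-and-mTEC2 regions about as often as any gene. Over all 21900 protein-coding genes, 562 (2.57%) had an E17-and-mTEC2 region within 10 kb, and of 282 genes in 23 lists of TEC and other cell types 6 (2.13%) had one, near the share over all genes. In all 23 lists the median number of these regions per gene was 0, as it was over all genes. No gene had one among 18 Aire-stage and antigen presentation genes, 21 of the NF-kB pathway, 12 of the AP-1 family, 14 interferon regulatory factors and STATs, 12 of Ccl21a-high mTEC, 13 of cortical TEC, 15 epithelial genes or 16 of keratinocyte-like TEC. The lists for microfold, endocrine, enterocyte and hepatocyte, muscle, erythroid and B cells, thymocytes, endothelium and the cell cycle also had none. At the share over all genes, lists of this length would mostly hold none or 1, so their zeros are not a result about these genes. The E15-and-mTEC2 regions reached 11 listed genes (3.90%, against 1.95% of all genes). E17-only regions reached 39 (13.8%, against 13.2%) and shared regions 242 (85.8%, against 76.7%).

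The listed genes described here came from different lists. Alox5ap, the leukotriene synthesis protein of the tuft cell list, had a region 2884 bp away at chr5:149262028-149262120, with 2.77 and 4.14 in E17 and 2.10 in mTEC2 replicate 1. Trp73, a p53 family factor of the ciliated cell list, had one 2690 bp away at chr4:154053215-154053559, with 1.76 and 3.22 in E17, 1.78 in mTEC2 replicate 1 and 1.63 in mTEC4 replicate 2. Another 3 were markers of other cell types or a housekeeping gene. Flt3, a receptor of dendritic cell progenitors, had a region inside the gene at chr5:147365838-147366255 with 1.76 and 3.97 in E17 and 1.27 in mTEC2 replicate 2. The region in Col1a1, a collagen of mesenchyme, had 4.81 and 9.37 in E17 and 1.89 in mTEC2 replicate 1, and that in Hprt, a purine salvage enzyme, 4.48 and 5.53 in E17 and 1.82 in mTEC2 replicate 2. Of the lists for other cells, 1 of 12 dendritic cell and macrophage genes and 1 of 10 mesenchyme genes had a region, and 0 of 14 thymocyte genes had one. Any part of such cells in the result was not tested.

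The defining genes of TEC had shared regions and no E17-and-mTEC2 region within 10 kb, as did most genes: 76.7% of all protein-coding genes have a shared region there and 2.57% an E17-and-mTEC2 region. Foxn1, with 5 shared regions within 10 kb, had its nearest E17-and-mTEC2 region 534390 bp away. Trp63, the transcription factor of stratified epithelium, had 11 shared regions, and its nearest E17-and-mTEC2 region was 269608 bp away. Psmb11, the proteasome subunit of cortical TEC, had 2 shared and 2 E17-only regions, with an E17-and-mTEC2 region at 188368 bp. Pou2f3, the tuft cell factor, had 5 shared regions and 1 E17-only region. Ccl21a had 3 shared regions and Aire had 1, and their nearest E17-and-mTEC2 regions lay 1245485 and 2461004 bp away.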

How the data were processed

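ATAC-seq was run on 10 libraries of sorted mouse TEC, 2 for each of 5 groups taken from the titles. The tools MACS2, Bowtie2, cutadapt and Picard and the build mm10 are named in the submitters' processing notes. Versions, and any shift of reads for the transposase, are not given in the sources used here. Every library has its own list of broad peaks, deposited without pooling of replicates. Each deposited peak carries a score, not used here, a fold enrichment that is a ratio to the caller's background, and −log10 p and −log10 q from the authors' caller. Peak starts and ends come from the deposited lists. No read counts were in the lists, so read depth is unknown and list lengths (40858 to 151646 peaks) stand in its place. All columns with values of a sample were mapped, and 0 were set aside.

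Peaks were merged where they overlapped or touched, with Python 3.11.15, pandas 2.3.3, numpy 2.4.6 and scipy 1.17.1, and plots were drawn with matplotlib 3.10.9. Region positions came from the RefSeq gene table of GRCm38.p6 (mm10) with 21900 protein-coding genes, and promoters and their sequences from RefSeq of the same build. Named genes are the nearest genes of the 15 regions of highest strength, the 10 genes with the most regions, Foxn1, Aire, Psmb11, Ccl21a, Pou2f3 and Trp63, and listed genes with a region within 10 kb, of which 1 is not reported here. Library shares were compared by exact permutation. Wilson intervals (95%) cover counting error only. The merging and set rules were tested on simulated lists. The set rule, gene lists and naming rule were chosen with earlier results of these data known.

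Alternatives were a −log10 q of at least 5, equal list lengths, 50% cover, a 500 bp margin, both mTEC2 lists, another merging unit, other gene windows, and each library left out in turn.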

Additional observations from a re-analysis of the deposited data

How the results depend on the processing

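The number of E17-and-mTEC2 regions, 701, depended on 5 of the libraries and on peak strength. It was 86 with a −log10 q of at least 5 in every list (60 with the ages turned round). With that threshold for presence only it was 4 (16), and with calls in both mTEC2 lists 63 (140). A threshold in every list also drops E15 peaks under 5, so the 86 regions are not a subset of the 701. Leaving out 1 library gave 161 to 3796 regions: 1852 and 1626 without E15 replicate 1 or 2, 3796 and 1289 without E17 replicate 1 or 2, and 161 without mTEC2 replicate 1. By construction, leaving out an E15 list makes absence at E15 easier to reach, and leaving out an E17 list makes presence at E17 easier. Leaving out an mTEC2 list makes presence in mTEC2 harder. The number was 765 (1334) with all lists at the shortest length and 741 (1517) with the embryonic lists at equal length. At 50% cover it was 666 (388), with the 500 bp margin 675 (599) and with E17 replicate 1 peaks as units 701 (654).

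The percent at a gene end, 4.99, was 11.6 and 0 under the 2 strength thresholds, 8.89 at the shortest length, 9.01 at 50% cover, 1.59 for both mTEC2 lists and 3.14 within 500 bp. It ranged from 3.80 to 5.84 with 1 library left out. The nearest genes fell to 78 and 4 under the strength thresholds, and the listed genes, 6, were 2 and 0 there, 12 and 11 at equal lengths and 16 within 50 kb. The cause of these moves was not tested. A threshold leaves smaller sets, and a threshold in every list also drops weak E15 peaks.

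With 1 library left out, the difference between mTEC1 and mTEC4 ranged from 0.644 to 7.65 percentage points, and that between E17-and-mTEC2 and E15-and-mTEC2 regions from −19.8 to 7.38, the positive value without E17 replicate 2. The difference of mTEC2 from the other day 6 libraries ranged from −1.001 to 7.72. With every day 6 list at the shortest length it was 1.06. With only mTEC2 replicate 1 shortened to the length of replicate 2, and the mTEC1 and mTEC4 lists whole, it was −0.804. Both choices were made after seeing the data. With replicate number as a block, mTEC1 minus mTEC4 stayed at 3.99 (exact p = 0.5). The libraries share only a number, so no pairing is established. Peak lists without depth limit every result to calls, and groups of 2 cannot reach 0.05.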
